A study of Mus musculus with 24 samples.

Results

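Gene expression in the terminal ileum of germ-free mice was compared between animals given short-chain β2→1-fructan and animals given water. Both groups held 4 male C57BL/6OlaHsd mice of 8 weeks, bred in a germ-free colony that was screened for sterility and fed a D12450B diet (10% fat). The treated mice had received 10 mg of the fructan by gavage once a day for 5 days, from a solution passed through a 0.2 micron filter, and the other mice had received water in the same way. One Affymetrix Mouse Gene 1.1 ST array was run per mouse, so that 8 of the 24 arrays of the series belong to the comparison. Of the remaining arrays, 8 came from conventional mice given the same fructan or water. They were used to test whether a change differed between germ-free and conventional mice, which also differed in origin. All 24 arrays entered the fit in limma, so that the SE and p of each change also rest on the spread within the other groups. Expression is given as the deposited log2 value, on which a difference of 1 is a doubling. All 18820 genes with a probe set carrying their symbol alone were tested, and each was read from the array in all 8 mice.

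β2→1-fructans of inulin type are chains of fructose that mouse enzymes do not digest and that gut bacteria ferment, so that in a germ-free gut the fibre meets the tissue with no microbial fermentation. The end of the small intestine takes up bile acids, and its enterocytes answer to them through the nuclear receptor FXR with the hormone FGF15, which travels to the liver and restrains bile acid synthesis. The wall under the epithelium holds smooth muscle, interstitial cells of Cajal, enteric neurons and a mesothelial cover, and all of these were read together in the pieces of ileum.

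The arrays carried markers of ileum. *Fabp6*, the bile acid binding protein of ileal enterocytes, lay between 12.48 and 12.80 in the 8 mice. The brush border peptidase *Anpep* lay between 12.71 and 12.85, whereas the stomach gene *Gkn1* stayed between 3.01 and 3.47. Of the colon markers, *Slc26a3* lay between 9.05 and 9.40, *Car1* between 4.19 and 7.49 and *Aqp8* between 3.045 and 3.54. The ileal gene *Enpp7* spread from 8.00 to 10.60 in the water mice and from 8.12 to 8.89 in the fructan mice. Array medians were 4.924 to 4.949 in the water group and 4.943 to 4.981 in the fructan group. Pairs of arrays within the water group correlated over their probe sets with r from 0.992 to 0.994 and pairs within the fructan group with r from 0.994 to 0.995, where probe sets of 1 array are not replicates. The RNA came from whole pieces of the gut wall, in which fewer cells of a type and less RNA per cell cannot be told apart.

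A gene was called at an unadjusted p under 0.01 (limma) and a fold change over 1.3, the thresholds of the study. With short-chain fructan, 109 genes were called (0.579% of the genes tested), of which 77 were higher (0.409%) and 32 lower (0.17%). None passed a Benjamini-Hochberg adjusted p of 0.05 in limma, where the smallest adjusted p was 0.15, and 1075 genes lay under an unadjusted p of 0.05 against 941 expected with no change at all. At an unadjusted p under 0.01 there were 246 genes against 188.2 expected. This excess depended on the fit. The count was 149 with the 12 germ-free arrays alone (smallest adjusted p 0.999, limma) and 177 with the 8 arrays of the comparison alone. It was 124 without fructan mouse 3 (smallest adjusted p 0.982, limma) and 431 without water mouse 3. Single calls are therefore candidates rather than established changes. Without fructan mouse 3 the number of called genes was 61, and without water mouse 3 it was 263. Higher calls numbered 213, 51 and 40 without water mouse 3, water mouse 4 and fructan mouse 3, and lower calls numbered 54, 50, 52 and 21 without water mice 2, 3 and 4 and fructan mouse 3. The changes were small: 15 called genes exceeded 1.5-fold and only *Fgf15* exceeded 2-fold. The called lower genes were mostly weakly expressed, with a median level of 3.62 against 5.53 over all genes, and the called higher genes had a median of 5.15.

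**Figure D1:**
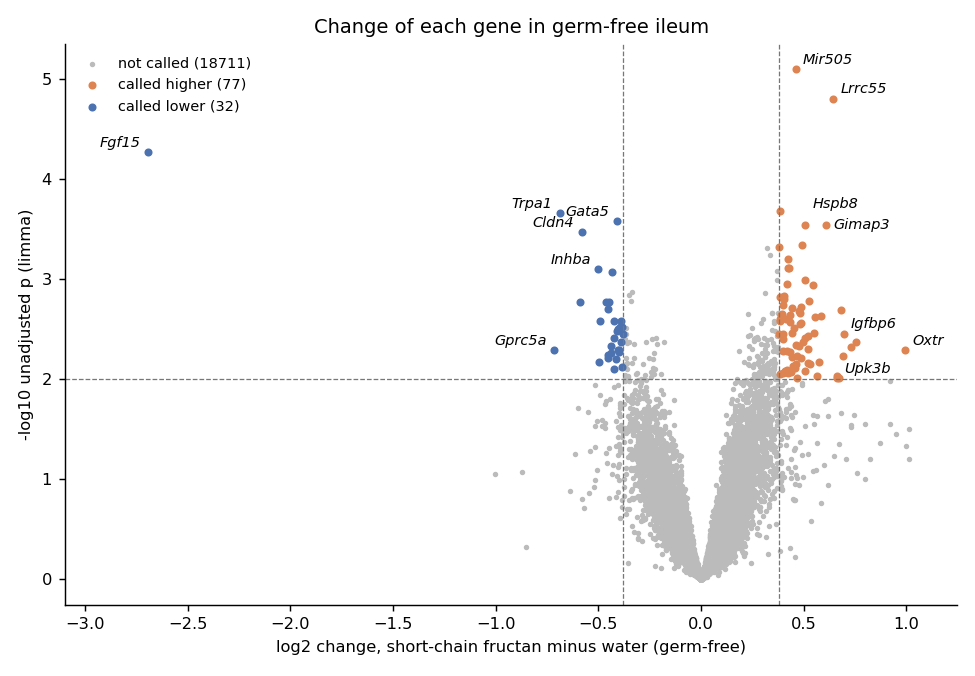
Change of each gene (x axis, log2 difference between the means of 4 fructan and 4 water germ-free mice) against its unadjusted limma p (y axis, -log10), with dashed lines at the thresholds of a call. *Fgf15* stands alone on the left at -2.70, and *Mir505* and *Lrrc55* have the smallest p.

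The gene with the smallest p was a microRNA locus. The mature products of *Mir505* (GRCm38, chrX:60394403-60394492) are shown here because no gene had a smaller p. *Mir17hg*, the host transcript of the microRNA cluster from *Mir17* to *Mir92-1* on chromosome 14, was also called, and the main mature microRNAs of that cluster are shown beside them, ordered by seed. The sequences are those of RefSeq (GRCm38.p6), written 5′ to 3′, and capitals mark the seed, bases 2 to 8, by which a microRNA pairs with its target messages. MicroRNAs 17-5p and 20a-5p share a seed, as do 19a-3p and 19b-3p, while both arms of *Mir505* have seeds of their own. The arms of *Mir505* lie on the minus strand at chrX:60394451-60394473 (5p) and chrX:60394416-60394437 (3p), and those of the cluster lie on the plus strand of chromosome 14, from 115043684 (17-5p) to 115044496 (92a-3p).
mmu-miR-505-5p: gGGAGCCAggaaguauugauguu
mmu-miR-505-3p: cGUCAACAcuugcugguuuucu
mmu-miR-17-5p: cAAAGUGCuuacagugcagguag
mmu-miR-20a-5p: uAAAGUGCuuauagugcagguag
mmu-miR-18a-5p: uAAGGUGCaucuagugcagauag
mmu-miR-19a-3p: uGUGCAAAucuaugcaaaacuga
mmu-miR-19b-3p: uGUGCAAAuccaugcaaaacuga
mmu-miR-92a-3p: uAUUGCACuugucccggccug

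*Mir505* was at 6.69, 6.52, 6.52 and 6.46 in the water mice and at 7.002, 6.91, 7.08 and 7.05 in the fructan mice. Every fructan mouse was above every water mouse. The difference was 0.46 (SE 0.084, limma, unadjusted p = 8.11e-06, adjusted p = 0.15), and the exact permutation test gave p = 0.029, the smallest that 4 mice against 4 allow. *Mir505* was called without each of the 8 mice in turn, with a change between 0.43 and 0.51. Of 303 microRNA genes tested it was the only one called (0.33%), and their median change was -0.006. The array was not designed to read mature microRNAs, so that the values are of RNA from the locus.

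*Mir17hg* was at 3.12, 3.23, 3.19 and 3.08 in the water mice and at 3.19, 3.81, 4.05 and 3.75 in the fructan mice. Fructan mouse 1 lay among the water mice, and the other fructan mice lay above all of them. The difference was 0.55 (SE 0.15, limma, adjusted p = 0.75, exact permutation p = 0.057). None of the hairpins of the same cluster passed the thresholds. *Mir17*, *Mir18*, *Mir19a*, *Mir20a* and *Mir19b-1* have probe sets of their own, and the differences of the 5 lay between -0.17 and 0.10 (smallest unadjusted p = 0.15, limma). A probe set shared by *Mir92-1* and *Mir17hg*, which was outside the fit, differed by 0.03. The RefSeq span of *Mir17hg* (chr14:115044390-115046728) begins at the end of *Mir19b-1*, so that of the hairpins only *Mir92-1* lies inside it.

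The largest change of any gene was the fall of *Fgf15* (chr7:144896532-144900953), the ileal hormone of the bile acid loop. It was at 8.98, 5.47, 7.86 and 6.93 in the water mice and at 5.51, 5.43, 3.001 and 4.51 in the fructan mice. Water mouse 2 lay just below the highest fructan mouse, and the other 3 water mice lay above all fructan mice. The mean fell by 2.70 on the log2 scale, a 6.48-fold change (SE 0.56, limma, unadjusted p = 5.47e-05, adjusted p = 0.34), and the exact permutation test gave p = 0.057. The call held without each mouse, at -3.31 to -2.14. The 4 germ-free water mice already spread over several doublings, with an SD of 1.49, against 1.17 in the fructan group. The SE and the limma p pool the spread of all 6 groups, conventional mice included. They do not measure the spread of these 8 mice alone.

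No other gene of bile acid handling was called. Of 13 genes of bile acid transport and FXR response that were measured, *Fgf15* alone was called, and their median difference was -0.09 against 0.01 over all genes, and -0.02 without water mouse 1. *Fabp6* differed by -0.09 (SE 0.059) and the apical bile acid transporter *Slc10a2* by 0.15 (SE 0.097). The exporter subunits *Slc51a* and *Slc51b* differed by -0.09 (SE 0.076) and -0.12 (SE 0.065), the receptor FXR itself (*Nr1h4*) by 0.07 (SE 0.096), and the FXR target *Nr0b2*, at 2.97 to 3.87 in the 8 mice, by -0.22 (SE 0.19). None of these 6 was called, and none of 12 genes of ileal enterocyte identity was (median -0.04). Without water mouse 3 the difference of *Nr1h4* was -0.02. In conventional mice *Fgf15* lay at 8.86 to 9.80 with water and at 8.73 to 9.86 with fructan, a range that only germ-free water mouse 1 reached, and its difference there was 0.23 (SE 0.56). The 4 germ-free mice given long-chain fructan, compared with the same water mice, had values of 6.29, 4.54, 5.57 and 4.89.

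**Figure D2:**
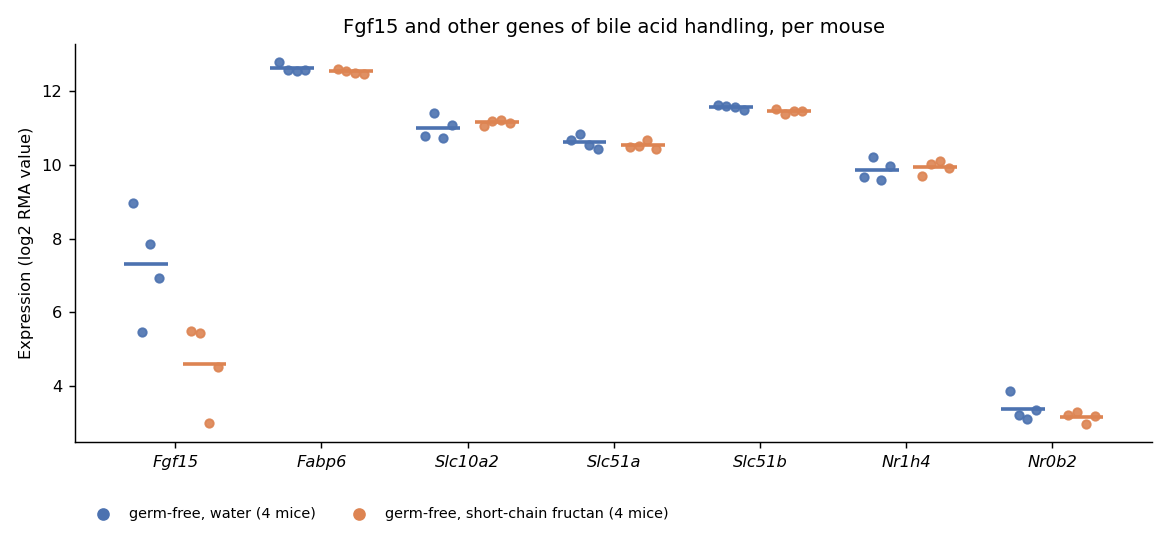
Log2 expression per mouse (y axis) of *Fgf15* and 6 other genes of bile acid handling in germ-free mice given water or short-chain fructan, with a line at each mean of 4 mice. The *Fgf15* mean drops from 7.31 to 4.61 and its mice spread widely, while the other 6 genes lie close together in both groups.

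Further lower genes included *Cldn4*, *Inhba*, *Gata5* and *Gprc5a*. *Cldn4*, a claudin of tight junctions, was at 8.77, 8.70, 8.91 and 8.27 with water and at 7.75, 8.21, 8.37 and 8.00 with fructan. Only water mouse 4 fell within the fructan range. The change was -0.58 (SE 0.14, limma, adjusted p = 0.72), and of 17 tight junction genes measured *Cldn4* was the only one called (median change -0.01). *Inhba*, a subunit of activin, was at 5.62, 5.69, 6.00 and 5.93 with water and at 5.38, 5.77, 5.13 and 4.95 with fructan, where mouse 2 overlapped with the water mice (-0.50, SE 0.13). *Gata5*, a transcription factor of the gut epithelium and among the more strongly expressed called genes, was at 9.60, 9.16, 9.41 and 9.41 with water and at 9.16, 9.08, 8.80 and 8.89 with fructan. Fructan mouse 1 reached the lowest water mouse, and the change was -0.41 (SE 0.097, limma, adjusted p = 0.68). *Gata5* was not called without water mouse 1 (-0.34), fructan mouse 3 (-0.35) or fructan mouse 4 (-0.38), nor when its probe sets were averaged. *Gprc5a*, a receptor induced by retinoic acid, was at 8.54, 8.73, 8.72 and 7.70 with water and at 7.48, 7.72, 7.42 and 8.22 with fructan. Its groups overlapped, with water mouse 4 low and fructan mouse 4 high. Its change was -0.71 (SE 0.23), and the call was lost without any of 5 mice (water mice 1, 2 and 3 at -0.67, -0.61 and -0.61, and fructan mice 1 and 3 at -0.64 and -0.62).

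Of the TRP channels, cation channels of sensation and calcium entry, a few were called, in both directions. Over all genes 0.579% were called. *Trpa1*, the irritant receptor of sensory nerves and enterochromaffin cells, was at 3.53, 4.27, 3.96 and 4.001 with water and at 3.20, 3.42, 3.15 and 3.24 with fructan. No fructan mouse reached the lowest water mouse. It fell by 0.69 on the log2 scale (SE 0.16, limma, adjusted p = 0.68, exact permutation p = 0.029). Of 16 channels measured, *Trpa1* and the warmth receptor *Trpv3* (-0.39, SE 0.12) were called lower and *Trpc1* (0.69, SE 0.23) higher, with a median change of -0.02. *Trpv3* was not called without water mouse 2 (-0.28), fructan mouse 3 (-0.35) or fructan mouse 4 (-0.37), nor with arrays weighted by quality. *Trpc1*, whose groups overlapped, was not called without water mouse 2 (0.60), water mouse 4 (0.56), fructan mouse 1 (0.62) or fructan mouse 4 (0.41).

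The other called genes with the largest decreases were mostly weakly expressed. *Zfp42*, a zinc finger gene known from pluripotent cells, was at 2.88, 3.07, 3.15 and 3.13 with water and at 2.22, 2.32, 2.53 and 2.79 with fructan, with no overlap (-0.59, SE 0.17). *Sox1* (-0.45), *Barx2* (-0.50), *Nodal* (-0.44), *Prame* (-0.46), *Pom121l2* (-0.45), *Lce3c* (-0.45) and the olfactory receptor genes *Olfr598* (-0.49) and *Olfr608* (-0.44) were lower by similar amounts. *Paqr8*, a membrane progesterone receptor, was at a higher level, 6.02 to 6.46 with water and 5.57 to 5.96 with fructan (-0.45, SE 0.13). *Zfp42* was called without each mouse, whereas each of the other 9 lost the call without at least 1 mouse: *Paqr8* without water mouse 2 (-0.36), *Sox1* without fructan mouse 1 (-0.39), *Prame* without water mouse 3 (-0.36), and the remaining 6 without 2 to 5 of the mice, with changes of -0.57 to -0.32 over all single omissions. Olfactory receptor genes have close relatives, so that their probes may be shared.

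Among the higher genes, *Lrrc55*, an auxiliary subunit of large-conductance potassium channels, had the second smallest p. It was at 4.01, 4.23, 4.35 and 4.55 with water and at 4.78, 4.80, 5.29 and 4.84 with fructan. All fructan mice were above all water mice, and the change was 0.65 (SE 0.12, limma, unadjusted p = 1.59e-05, adjusted p = 0.15, exact permutation p = 0.029). *Gimap3*, a GTPase of lymphocytes, also separated the groups, at 3.97, 4.36, 4.14 and 4.09 against 4.75, 4.67, 5.06 and 4.52 (0.61, SE 0.15). *Hspb8*, a small heat shock protein of muscle, rose from 6.16, 6.12, 6.59 and 6.17 to 6.64, 6.85, 6.84 and 6.75 (0.51, SE 0.12). *Cavin2*, a coat protein of caveolae, rose from 6.78, 6.83, 6.80 and 6.56 to 7.15, 7.08, 7.42 and 7.29 (0.49, SE 0.12), again with no overlap. *Cavin1*, which works in the same coat, was called with overlapping groups (0.39, SE 0.12) and lost the call without water mice 1 (0.29), 2 (0.37) or 4 (0.37) or fructan mouse 3 (0.34). *Ahnak2* lay at 4.43 to 4.54 with water and at 4.84 to 5.13 with fructan (0.49, SE 0.14). All 4 fructan mice were above all 4 water mice for 25 called genes and below them for 19, and over all genes the groups did not overlap for 570 of 18820 genes (3.03%). That share is close to 0.0286, the smallest exact permutation p and the share expected with no change at all. The called genes had been chosen by their p, so that their separation is no further evidence.

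In all, 13 of the 109 called genes were called without each of the 8 mice: *Fgf15*, *Trpa1*, *Zfp42*, *Cldn4* and *Inhba* among the lower, and *Mir505*, *Lrrc55*, *Gimap3*, *Mir17hg*, *Hspb8*, *Calb2*, *Cavin2* and *Ahnak2* among the higher. The same 13 also passed in each of the other fits over all 8 mice that tested them, whereas *Mir17hg* and *Ahnak2* were not called with both water mouse 2 and fructan mouse 3 left out. The fit without dim genes did not test *Trpa1*, *Zfp42*, *Lrrc55*, *Gimap3*, *Mir17hg*, *Calb2* and *Ahnak2*. All these fits share mice and give no independent evidence. Of the genes given values so far, *Gata5*, *Mir505*, *Mir17hg* and its hairpins, *Hspb8*, *Cavin2*, *Cavin1* and *Ahnak2* were singled out after their values were seen. Smooth muscle genes had positive differences in the same mice (median 0.27 over 15 genes), and their part in the changes of *Hspb8*, *Cavin2* and *Cavin1* was not tested. The number of calls lost was highest without fructan mouse 3 (67 of 109) and lowest without fructan mouse 2 (24). Fructan mouse 3 was the highest of the 8 mice for 43 of the 77 higher genes and the lowest for 14 of the 32 lower genes.

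**Figure D3:**
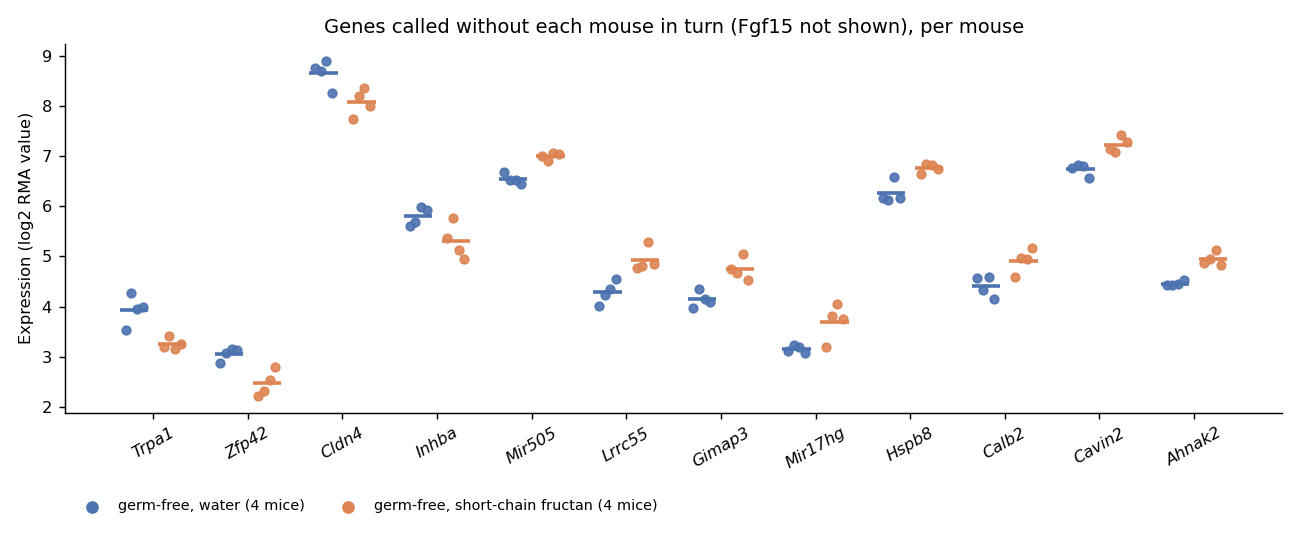
Log2 expression per mouse (y axis) of 12 of the 13 genes that were called without each mouse in turn, in 4 water and 4 fructan mice with lines at the means. The first 4 genes are lower and the other 8 higher with fructan.

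Genes of the gut wall had mostly positive differences, although few were called. Over all genes 0.409% were called higher. Of 15 contractile genes of smooth muscle measured, all 15 had a positive difference and 1 was called, with a median of 0.27 against 0.01 over all genes. The called gene was *Pln*, phospholamban, which restrains the calcium pump of muscle, at 6.31, 5.62, 6.56 and 6.21 with water and at 6.62, 6.47, 6.73 and 6.61 with fructan (0.43, SE 0.14). *Acta2* (0.26, SE 0.092), *Myh11* (0.28, SE 0.095) and *Des* (0.35, SE 0.13), markers of the muscle layer, were not called. The mean level of the list, centered on the 8 mice, was -0.11, -0.62, 0.24 and -0.05 in the water mice and 0.24, 0.08, 0.11 and 0.10 in the fructan mice. Water mouse 2 was far below the other mice and water mouse 3 was as high as the highest fructan mouse. Without water mouse 2 the list's median was 0.12 and *Pln* was not called (0.25), and it also lost the call without fructan mice 1 (0.43), 3 (0.39) or 4 (0.43). Without water mouse 3 the median was 0.39 and *Des* (0.52) and *Myh11* (0.39) were called, and *Des* also without water mouse 4 (0.40). The part that the share of muscle in the tissue pieces had in these differences was not tested.

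The nerve and pacemaker cells of the wall followed the same mice. All 7 markers of interstitial cells of Cajal had a positive difference, with a median of 0.21, and none was called. The median was 0.14 without water mouse 2 and 0.33 without water mouse 3. Their mean level was -0.16, -0.28, 0.15 and -0.15 in the water mice and 0.08, 0.08, 0.17 and 0.11 in the fructan mice. Water mouse 2 was again lowest, and water mouse 3 lay among the fructan mice. *Kit*, their receptor tyrosine kinase, was at 7.35, 7.09, 7.24 and 7.32 with water and at 7.54, 7.49, 7.67 and 7.64 with fructan. Its groups did not overlap, and the difference of 0.34 (SE 0.086, limma, unadjusted p = 0.000583, adjusted p = 0.75) was below the 1.3-fold threshold. *Ano1*, the chloride channel of these cells, differed by 0.25 (SE 0.11) and was called without water mouse 3 (0.40). Of 18 genes of enteric neurons and glia, 14 had a positive difference (median 0.18) and 2 were called, both neuronal. The share of all genes called higher was 0.409%. *Calb2*, calretinin, rose from 4.57, 4.33, 4.60 and 4.15 to 4.58, 4.97, 4.95 and 5.17, with fructan mouse 1 inside the water range (0.51, SE 0.14). *Prph*, an intermediate filament of peripheral neurons, rose from 5.05, 4.51, 5.31 and 5.01 to 5.35, 5.36, 5.45 and 5.40 (0.42, SE 0.14). *Prph* was not called without water mouse 2 (0.27), fructan mouse 3 (0.40) or fructan mouse 4 (0.41).

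Other called genes known from nerve and muscle lay outside these lists. *Oxtr*, the oxytocin receptor, had the largest increase of all called genes. It was at 4.28, 5.26, 5.89 and 4.42 with water and at 5.91, 5.86, 6.45 and 5.60 with fructan. Water mouse 3 overlapped with the fructan mice, and the change was 0.99 (SE 0.33, limma, adjusted p = 0.75, exact permutation p = 0.086). Water mice 1 and 4 were lowest for *Oxtr*, as for the fat marker *Adipoq*, whereas the smooth muscle list was lowest in water mouse 2. The part that attached fat had in the change of *Oxtr* was not tested. Of 18 receptors of gut smooth muscle *Oxtr* was the only one called (median 0.12), and the call was lost without water mouse 1 (0.77), water mouse 4 (0.81) or fructan mouse 3 (0.83). The neurofilament gene *Nefl* (0.58, SE 0.20), the vesicular glutamate transporter *Slc17a8* (0.57, SE 0.20), the amine oxidase *Aoc3* of vessels, muscle and fat (0.56, SE 0.17), the enkephalin precursor *Penk* (0.47, SE 0.17), the ATP receptor *P2rx2* (0.40, SE 0.13) and the muscle integrin *Itga7* (0.48, SE 0.15) were higher too. *Penk*, *P2rx2* and *Itga7* were named after their values were seen. Each of these 6 lost the call without 3 to 5 of the mice, with changes between 0.31 and 0.79 over all single omissions.

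Mesothelial markers were, as a list, highest in fructan mouse 3. Of 11 mesothelial markers 10 had a positive difference (median 0.30) and 2 were called, beside 0.409% of all genes called higher. *Upk3b*, a uroplakin of mesothelium, was at 6.36, 5.53, 6.46 and 5.80 with water and at 6.16, 6.83, 7.33 and 6.49 with fructan. *Igfbp6*, a binding protein of insulin-like growth factors made by mesothelial cells and fibroblasts, was at 6.35, 5.82, 6.63 and 5.85 with water and at 6.40, 6.89, 7.504 and 6.63 with fructan. In both genes the groups overlapped, water mice 2 and 4 were low and fructan mouse 3 was highest. The changes were 0.67 (SE 0.24) and 0.69 (SE 0.22). Without fructan mouse 3 they were 0.46 and 0.48 and neither gene was called, and both also lost the call without water mouse 2 (0.50 and 0.58) or water mouse 4 (0.59 and 0.59). *Upk3b* further lost it without fructan mouse 2 (0.62) and in 6 fits with other settings, its p lying just under the threshold (0.00984, limma, unadjusted). The list's level was 0.01, -0.39, 0.05 and -0.36 in the water mice and -0.10, 0.12, 0.55 and 0.11 in the fructan mice, and its median was 0.17 without fructan mouse 3. Of 18 fibroblast and matrix genes only *Igfbp6* was called (median 0.06, or 0.14 without water mouse 4). The matrix genes *Lox* (0.52, SE 0.16), *Fbln2* (0.48, SE 0.15) and *Thbs2* (0.40, SE 0.11), outside that list and chosen after their values were seen, were called and lost the call without 3 to 5 of the mice, fructan mouse 3 among them (0.44, 0.33 and 0.30).

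Fat markers differed mainly among the water mice. All 11 adipocyte markers had a positive difference, with a median of 0.46, and none was called. The median was 0.27 without water mouse 1 and 0.80 without water mouse 3. *Adipoq*, adiponectin, was at 5.71, 7.54, 8.29 and 6.32 with water and at 7.98, 8.06, 8.02 and 7.85 with fructan, and *Plin1*, the coat of fat droplets, followed the same mice. Water mice 1 and 4 were low, and water mouse 3 was above every fructan mouse. The difference of *Adipoq* was 1.01 (SE 0.45, limma, adjusted p = 0.82, exact permutation p = 0.17) and that of *Plin1* 0.75 (SE 0.31). Without water mouse 3, *Adipoq* (1.45), *Plin1* (1.09) and *Cdo1* (0.72) were called, and *Plin1* also without water mouse 2 (0.945). The fatty acid carrier *Cd36*, which enterocytes and fat cells both hold, differed by 0.68 (SE 0.28) with the same mice low, and was called without water mouse 2 (0.87) or 3 (0.96). With all 8 mice, *Plin1* (0.85 and 0.75) and *Cd36* (0.77 and 0.68) were also called with arrays weighted by quality and with a replicate block. The part that attached fat had in these differences was not tested.

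**Figure D4:**
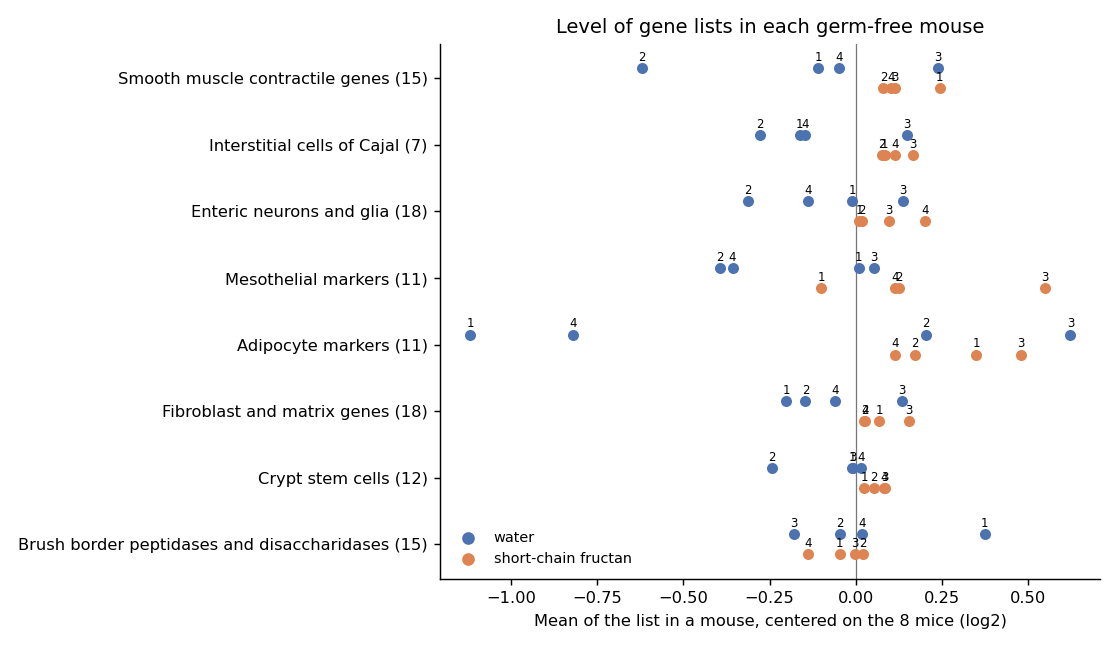
Mean level of 8 gene lists in each mouse (x axis, log2, centered on the 8 mice, number of genes in parentheses, small digits naming the mouse). Water mouse 2 is lowest for muscle (-0.62), water mice 1 and 4 are lowest for fat, fructan mouse 3 is highest for mesothelium, and the crypt stem cell list is the only one here with no overlap between groups.

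In the epithelium, crypt stem cell genes lay slightly higher in the fructan mice. Of 12 genes 10 had a positive difference (median 0.11), none was called, and the list's level was -0.01, -0.24, -0.01 and 0.02 with water and 0.03, 0.05, 0.08 and 0.08 with fructan. Among the 50 lists described it was the only one whose groups did not overlap, and of all single genes 3.03% did not. The median was 0.07 without water mouse 2 and 0.17 without water mouse 3. *Smoc2* (0.26, SE 0.084) and *Znrf3*, a ligase that dampens Wnt signaling (0.23, SE 0.078), were higher in every fructan mouse than in every water mouse, *Smoc2* by a hair (6.80 in both water mouse 4 and fructan mouse 1), and lay below the 1.3-fold threshold. The same held for *Slc12a2*, the basolateral chloride importer (0.19, SE 0.071). *Lgr5*, the defining stem cell marker, differed by -0.02 (SE 0.079). Of 16 crypt proliferation genes none was called (median -0.04).

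No digestive or metabolic gene of the lists described here was called. Of 15 brush border peptidases and disaccharidases 13 had a negative difference (median -0.06), and without water mouse 1 the median was 0.01. *Lct*, lactase, was at 7.37 in water mouse 1 and between 3.91 and 5.01 in the other 7 mice, and *Apoa4*, an apolipoprotein of chylomicrons, was at 11.92 in that mouse and between 10.40 and 10.96 in the others. The differences of -0.64 (SE 0.41) and -0.46 (SE 0.23) rested on that mouse, and without it they were 0.11 and -0.16. *Apoa4* was called without water mouse 2 (-0.66). No gene was called among 14 of sugar transport and fructose metabolism (median 0.04), where *Slc5a1*, the glucose transporter of the brush border, differed by 0.12 (SE 0.074) and the sugar-responsive *Txnip* by 0.23 (SE 0.13). None was called among 12 amino acid and peptide transporters either, although *Slc38a2* had an unadjusted p of 0.00413 (0.26, SE 0.082, limma, adjusted p = 0.75). Of 12 genes of PPAR-alpha and fatty acid oxidation 10 had a positive difference (median 0.10, or 0.05 without water mouse 2).

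The immune lists held 2 called genes. They were 1 of 17 genes of alternative macrophages and type 2 responses (median -0.02) and 1 of 14 mature B cell markers (median -0.03). Over all genes 0.579% were called. *Retnla*, RELM-alpha of alternatively activated macrophages and other cells, was at 2.65, 2.92, 3.06 and 2.64 with water and at 3.44, 2.88, 3.74 and 3.54 with fructan (0.58, SE 0.17). Fructan mouse 2 lay among the water mice, and the call was lost without water mouse 4 (0.52) or fructan mouse 3 (0.47). *Fcrla*, a receptor-like protein of B cells, was at 3.77, 3.68, 3.88 and 3.93 with water and at 3.65, 3.21, 3.22 and 3.46 with fructan, without overlap (-0.43, SE 0.11), and was not called without fructan mouse 2 (-0.37) or 3 (-0.38). No gene was called among 22 markers of macrophages and dendritic cells (median 0.06), 9 of MHC class II presentation (0.02), 19 of T and intraepithelial lymphocytes (0.005), 17 interferon-stimulated genes (-0.02), 21 chemokines (-0.02) or 22 Toll-like, NOD-like and lectin receptors (-0.02). Of these 6 medians, all but that of macrophages and dendritic cells changed sign without 1 of the mice. *Igha*, the IgA heavy chain, had values of 5.45, 8.19, 8.13 and 5.90 with water and 6.36, 5.85, 5.77 and 5.66 with fructan, a difference of -1.01 (SE 0.57) that was within the spread of the water mice. Of other genes that the study names, the costimulator *Cd80* (0.05, SE 0.15), the integrins *Itgam* (0.06, SE 0.13) and *Itgae* (-0.12, SE 0.17) and the B cell marker *Ms4a1* (-0.03, SE 0.24) were not called. For this fructan in germ-free mice, the study reported less CD80 protein on a subset of Peyer's patch dendritic cells by flow cytometry. RNA of whole ileum does not measure that.

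Epithelial genes that respond to microbes were set beside the conventional mice, which had come from a commercial supplier and for which the filter step is not described, so that colonization, origin and filtering cannot be told apart. In conventional mice 77 genes were called with the same fructan (0.409%). *AB124611* was called there and in germ-free mice, and was the only such gene (0.917% of the germ-free and 1.299% of the conventional calls). Its values in germ-free mice were 4.52, 4.49, 4.70 and 4.86 with water and 5.59, 4.51, 5.66 and 5.53 with fructan (0.68, SE 0.20), against a change of 0.55 (SE 0.20) in conventional mice. Fructan mouse 2 was as low as the water mice, and the call was lost without fructan mouse 1 (0.59) or 3 (0.57). *Fut2*, which fucosylates the epithelial surface, differed by 0.14 (SE 0.21) in germ-free and by 1.01 (SE 0.21) in conventional mice, a difference between the changes of -0.88 (SE 0.30, limma, unadjusted p = 0.00686, adjusted p = 0.90). *Retnlb*, a goblet cell peptide, differed by 0.17 (SE 0.30) and 1.13 (SE 0.30), and the difference between them had an unadjusted p of 0.0316 (limma). For *Duox2*, an epithelial oxidase, the changes were -0.47 (SE 0.20) and 0.57 (SE 0.20), a difference of -1.04 (SE 0.28, limma, unadjusted p = 0.00111, adjusted p = 0.90), and its partner *Duoxa2* had changes of -0.51 (SE 0.28) and 0.54 (SE 0.28). None of these 4 was called in germ-free mice, although *Duox2* was when only the 12 germ-free arrays or the 8 of the comparison were fitted, and of 19 genes induced by IL-22 none was called (median -0.03, against 0.10 in conventional mice with 3 called). *Fut2*, *Retnlb* and *Duox2* were singled out by the study on the same arrays and give no independent evidence of a direction.

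Whether the change after short-chain fructan differed between germ-free and conventional mice was tested as an interaction. The interaction was called for 133 genes (0.707%), and for 215 without germ-free water mouse 3. At an unadjusted p under 0.01 there were 174 genes against 188.2 expected, and none had an adjusted p under 0.05 in limma (1025 had an unadjusted p under 0.05, against 941 expected). Of the 109 genes called in germ-free mice, 32 were also called for this difference, and 56 had a change of the same sign in conventional mice. Both counts are a description, since choosing genes by a large change in germ-free mice favours a large difference. In *Fgf15* the difference was -2.93 (SE 0.79, limma, unadjusted p = 0.00103, adjusted p = 0.90), in *Mir505* 0.49 (SE 0.12, unadjusted p = 0.000297, adjusted p = 0.90) and in *Gata5* -0.53 (SE 0.14). Conventional mice had *Mir505* at 6.57 to 6.77 with water and 6.64 to 6.76 with fructan. The germ-free fructan mice, at 6.91 to 7.08, were above all of these, and the germ-free water mice, at 6.46 to 6.69, overlapped with them. For *Lrrc55* and *Gimap3* it was otherwise: conventional water mice lay at 4.925 to 5.33 and 5.21 to 5.73, above all germ-free water mice and, for *Gimap3*, above all germ-free fructan mice.

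**Figure D5:**
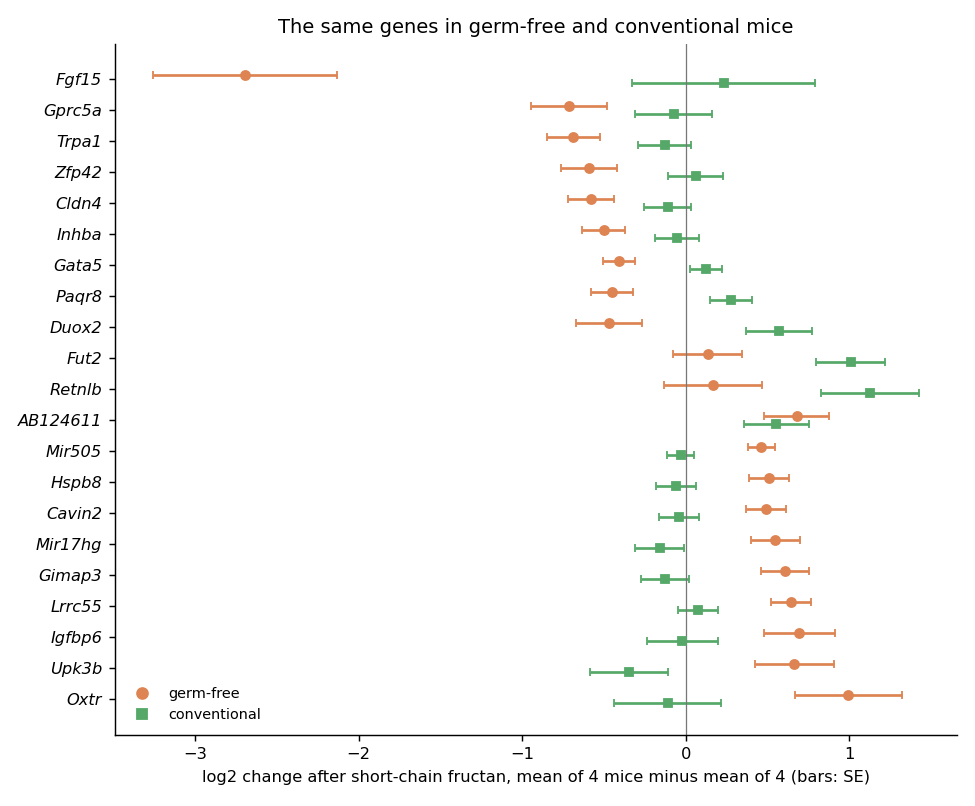
Change after short-chain fructan (x axis, log2, mean of 4 fructan mice minus mean of 4 water mice, bars SE) of 21 genes in germ-free and conventional mice. *AB124611* is the only gene called in both, at 0.68 and 0.55, and *Fut2*, *Retnlb* and *Duox2* have changes of 1.01, 1.13 and 0.57 in conventional mice.

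The remaining genes among the largest increases were *Plscr2* (0.76, SE 0.24), *Gm26504* (0.73, SE 0.24), *Usp17ld* (0.67, SE 0.24) and *Tmem182* (0.66, SE 0.24). *Usp17ld* and *Plscr2* belong to families of close relatives, so that their probes may read several genes. *Gm26504* is covered by 16 probe sets, and on the other 15, which gave the same difference, it was 0.59. With probe sets averaged, neither *Gm26504* nor *Usp17ld* was called. Each of the 4 genes lost its call without 3 to 6 of the mice, with changes of 0.43 to 0.99 over all single omissions.

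The choice of arrays in the fit left each difference as it was and moved its error. With the 12 germ-free arrays alone 85 genes were called, and *Nodal*, *Olfr608*, *Oxtr*, *Igfbp6*, *Trpc1*, *Usp17ld*, *Upk3b*, *Tmem182*, *Slc17a8*, *Aoc3*, *Pln*, *Penk* and *Fbln2* were not. With the 8 arrays of the comparison alone 88 genes were called, and *Gm26504*, *Trpc1*, *Upk3b*, *Slc17a8*, *Aoc3*, *Pln*, *Prph*, *Itga7*, *P2rx2*, *Fbln2*, *Lox* and *Thbs2* were not. Of the genes named here, *Cavin1*, *Pln*, *Slc17a8*, *Upk3b*, *Tmem182*, *Penk* and *Thbs2* lost the call after a further normalization by cyclic loess.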

How the data were processed

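Pieces of terminal ileum were profiled on Affymetrix Mouse Gene 1.1 ST arrays, 1 per mouse, from 100 ng of RNA. The deposited values are log2 expression made by the authors with RMA, which corrects background, normalizes by quantiles and summarises probes over all arrays together, so that a value of 1 array depends slightly on the others. Probe sets carry the manufacturer's numbers, although the methods describe a remapped probe definition. Of 35556 probe sets, 21218 have 1 gene symbol, 1881 several and 12457 none. The set with the highest mean was kept for the 1386 genes with several, which left 18820 genes, of which 18790 matched RefSeq (GRCm38.p6).

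All 24 arrays were fitted with 6 group means in limma 3.58.1 (R 4.3.3; eBayes with trend, 18 residual degrees of freedom), and the fructan and water groups of germ-free mice were contrasted. An interaction contrast set this change against that in conventional mice. Adjusted p-values are Benjamini-Hochberg over all 18820 genes. Exact two-sided permutation tests over the 35 divisions of 8 mice cannot give a p under 0.0286. The number of arrays limits the precision. Genes were named if they were among the 15 largest called changes either way, were called members of a list, had one of the 3 smallest p in a described list with no call, were named by the study, were called in conventional mice too, or belonged with *Fgf15* to bile acid handling, and exceptions are stated where they occur. Gene lists (50 with at least 3 measured genes) are described by counts and medians without a test. The comparison, the lists and the genes were chosen with earlier results of these data known. Groups came from the sample titles, and replicate numbers did not pair the mice (correlation of same-numbered deviations -0.062 to 0.027). Alternatives were leaving out each mouse, other array sets, prior variance, normalization, array weights, probe set averages, a filter on dim genes and a replicate block. The scripts were tested on simulated data. Mature microRNA sequences come from RefSeq.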

Additional observations from a re-analysis of the deposited data

Results flagged for a closer look

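In some genes 1 mouse of a group of 4 stood apart from the other 3 by Dixon's criterion, which chance alone meets in about 1 of 20 groups. Both groups of nearly every named gene were examined, so that several such mice would occur by chance. In the water group these were mouse 1 for *Fabp6* (12.799), mouse 2 for *Trpv3* (5.157) and *Mir19a* (2.901), mouse 3 for *Nefl* (3.545), *Hspb8* (6.588) and *Lox* (4.516), and mouse 4 for *Nodal* (4.197) and *Ahnak2* (4.536). In the fructan group they were mouse 2 for *AB124611* (4.511) and mouse 3 for *Lrrc55* (5.290) and *Slc12a2* (10.282). In *Trpv3*, *Nodal*, *Nefl*, *Hspb8*, *Ahnak2* and *Lox* the odd water mouse lay away from the rest of its group, and without it the change had the same sign, but *Trpv3* (-0.283), *Nodal* (-0.316) and *Nefl* (0.489) were no longer called.

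The change after short-chain fructan in germ-free mice minus that in conventional mice passed the thresholds of a call for 14 of the genes called in germ-free mice and named here, although every adjusted p for this difference was at least 0.90 (limma) and the genes had been selected by their change in germ-free mice. It was negative for *Fgf15* (-2.9281), *Olfr598* (-0.7707), *Pom121l2* (-0.7339), *Paqr8* (-0.7264), *Prame* (-0.5748) and *Gata5* (-0.5330). It was positive for *Upk3b* (1.0142), *Gimap3* (0.7366), *Mir17hg* (0.7066), *Lrrc55* (0.5681), *Hspb8* (0.5667), *Cavin2* (0.5335), *Mir505* (0.4933) and *Cavin1* (0.4553).

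Among genes not called in germ-free mice the same difference passed the thresholds for *Adipoq* (2.0374, from changes of 1.01 in germ-free and -1.03 in conventional mice), *Duox2* (-1.0400) and *Fut2* (-0.8756).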

How the results depend on the processing

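The count of called genes was 85 to 136 in 8 other fits (109 as reported), 136 with the replicate block and 85 with the 12 germ-free arrays alone, and without 1 mouse it lay between 61 and 263 (40 to 213 higher, 21 to 54 lower). The fit with a replicate block kept 105 of the 109 calls, and for the difference from conventional mice it gave 169 calls against 133. With dim genes left out, fewer genes were tested and 33 were called (27 higher, 6 lower), and 40 for the difference from conventional mice, which without 1 mouse had 107 to 215 calls. At a Benjamini-Hochberg adjusted p under 0.05 there were 0 and 0 genes (limma), but 1 without water mouse 2 and 2 without water mouse 3. With both water mouse 2 and fructan mouse 3 left out, chosen after seeing the data, 101 genes were called (56 higher, 45 lower), of which 40 were among the 109. Differences that changed sign were all of uncalled genes: without 1 mouse *Nr1h4* lay between -0.0154 and 0.1872, *Mir17* between -0.0411 and 0.1918, *Mir18* between -0.1556 and 0.0170, *Mir19a* between -0.0939 and 0.1952, *Mir20a* between -0.0605 and 0.0399 and *Lct* between -1.0072 and 0.1069. *Mir19a* was 0.0082 and *Mir20a* 0.0080 after cyclic loess, and *Mir19a* was 0.0059 with array weights and 0.1422 without both mice. Over the named genes and all settings, 1197 values kept their direction and side of the thresholds, 191 lost a call, 17 gained one and 15 changed sign. These counts leave out *Anpep*, *Gkn1*, *Slc26a3*, *Car1*, *Aqp8*, *Enpp7*, *Lgr5*, *Mir92-1*, *Cd80*, *Itgam*, *Itgae* and *Ms4a1*. Of list medians 593 held and 6 moved. The causes were not tested.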
